A study of Homo sapiens with 48 samples.

Results

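The genes described here are 40 genes linked to the making of ribosomes in the nucleolus, chosen by gene symbol from general knowledge of the pathway and not by a threshold on measured values. Earlier results of these data were known when the choice was made. All 40 were found in the count table, which lists 61815 human genes, and all 40 had enough reads to be tested among 20009 tested genes. They comprise 4 genes of RNA polymerase I transcription (POLR1A, POLR1B, POLR1C, TCOF1), 9 genes of the small nucleolar RNA-protein particles (NOP56, NOP58, FBL, RRP9, DKC1, GAR1, NHP2, NAF1, NOLC1), 9 genes of small subunit assembly (HEATR1, UTP4, WDR43, UTP20, NOP14, IMP4, BYSL, RRP12, DDX10), 12 genes of large subunit assembly (NOP2, NOP16, BOP1, PES1, WDR12, WDR74, RRS1, PPAN, MRTO4, NIP7, GNL3, RRP1B) and 6 genes with several roles, not all of them in ribosome assembly (NCL, NPM1, DDX21, LYAR, PA2G4, PPRC1).

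Ribosome production starts when RNA polymerase I copies the ribosomal DNA into a long precursor RNA inside the nucleolus. Small nucleolar particles guide the chemical modification of that precursor (box C/D particles, with NOP56, NOP58 and the methyltransferase FBL, add methyl groups, and box H/ACA particles, with DKC1, GAR1 and NHP2, convert uridine to pseudouridine), and separate sets of factors cut and fold it into the small and large subunits. The transcription factor MYC is known to promote the genes of this pathway, often through a DNA element called the E-box, and enlarged nucleoli are a classic feature of prostate cancer cells.

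RNA sequencing was done on 22Rv1 cells, derived from a castration-resistant prostate cancer, to measure what inhibition of the Mediator kinases CDK8 and CDK19 does to gene expression. There were 48 libraries in 16 groups of 3, described by the submitters as biological triplicates; no source says how far the cultures of a triplicate were kept apart, so the tests measure the spread between these samples. Parental cells are named Rv1-WT, and Rv1-Luc are parental cells given firefly luciferase with a lentivirus. Both were cultured in complete fetal bovine serum (FBS) as well as in serum stripped of androgens with charcoal (CSS), and received the CDK8/19 inhibitor SNX631 at 500 nM or 0.1% DMSO as vehicle for 72 hours. The other 4 lines carry a CRISPR/Cas9 knockout of both kinase genes and were grown in FBS with the same 2 treatments: dKO-19 and dKO-19M re-express active CDK19 or its kinase-dead D173A mutant in the knockout cells, and dKO-8 and dKO-8M re-express active CDK8 or kinase-dead D173A CDK8 in knockout cells that already carried an empty vector. The re-expressed kinases come from lentiviral vectors, so their levels differ from the parental ones, and whether each line is a single clone is not given in the sources used here.

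The libraries held 13.2 to 31.5 M counts (median 21.4 M). The knockout did not remove the kinase transcripts from the counts, given here as CPM (counts scaled to library size). Group means of CDK8 were 23.4 to 28.5 CPM in every group of Rv1-WT, Rv1-Luc, dKO-19 and dKO-19M cells. They were 64.2 to 68.7 CPM in dKO-8 and 123 to 131 CPM in dKO-8M. CDK19 was at 332 to 510 CPM in dKO-19 and dKO-19M. Luminal prostate genes had reads in every library but at unlike levels. FOXA1, a luminal transcription factor, was at 536 to 1126 CPM over the single libraries and KRT8 at 442 to 3247 CPM. KLK3 (0.392 to 11.9 CPM), KLK2 (0.313 to 19.4 CPM) and TMPRSS2 (4.35 to 47.6 CPM) were low. Summed marker genes of fibroblasts (3.72 to 28.2 CPM), immune cells (0.365 to 3.60 CPM) and endothelial cells (0 to 0.942 CPM) were also low. Immunoglobulin genes reached 42.5 CPM, the highest values being in Rv1-Luc. Replicate 1 of vehicle-treated dKO-19M stood apart from replicates 2 and 3 of its group, with a chi-square of 16.51 and 15.97 per degree of freedom against them, where the 48 replicate pairs ranged from 1.27 to 16.5. Its summed ribosomal protein transcripts were at 91679 CPM against 75639 and 76271 CPM in the other two, so values that use it are given with and without it where they move. Replicate 1 of vehicle-treated Rv1-Luc in FBS also differed from its group, with 9.15 and 4.88 per degree of freedom against replicates 2 and 3.

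The 40 genes were moderately to highly expressed and their levels varied little among replicates. Mean levels ran from 27.1 CPM for NAF1, an assembly factor of the H/ACA particle, to 1091 CPM for NCL (nucleolin), with a median over the genes of 84.5 CPM, and the smallest count of any of them in any library was 286. The coefficient of variation within groups ran from 2.18% (NCL) to 6.46% (LYAR), with a median of 4.54%. Per kilobase of annotated exon, in vehicle-treated Rv1-WT cells in FBS, NPM1 (nucleophosmin) was highest at 261 CPM per kb, followed by NCL at 138, NHP2 at 107, PA2G4 at 106 and NOLC1, the Nopp140 chaperone of small nucleolar particles, at 102; the lowest were POLR1C at 5.68, UTP20 at 5.57 and the helicase DDX10 at 4.85. For 15 of the genes more than 25% of libraries held fractional counts. Such counts can arise where a read is divided between loci, which no source used here states, and the levels of these genes are uncertain to that extent: NOP56, NOP58, DKC1, NOLC1, HEATR1, WDR43, NOP2, BOP1, WDR74, RRS1, PPAN, GNL3, NCL, PA2G4 and PPRC1.

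Across the 16 groups, the highest group mean of a gene was 1.26 (GNL3) to 2.27 times (RRP12) its lowest, with a median of 1.51. The highest group was one of the dKO-19 or dKO-19M groups for 23 of the 40 genes and SNX631-treated Rv1-WT in CSS for 9. The lowest was vehicle-treated Rv1-WT in CSS for 20 genes and vehicle-treated Rv1-Luc in CSS for 9, and no gene was lowest in a dKO-19 or dKO-19M group. The summed level of the 40 genes followed the same order: it was 5738 ± 98.1 CPM (SD, n = 3) in vehicle-treated Rv1-WT in CSS, the lowest group, and 7584 ± 30.1 CPM in vehicle-treated dKO-19, the highest. Group means were 7250 to 7584 CPM over the dKO-19 and dKO-19M groups against 5738 to 6816 CPM over the other 12 groups. These levels depend on the TMM factors, which were 0.911 to 0.962 in the dKO-19 and dKO-19M libraries and 0.963 to 1.07 in the others. A lower factor gives a higher CPM, and a level multiplied by its factor is the level on plain library totals. On plain totals the order of the summed levels changed. Vehicle-treated dKO-19 then lay below SNX631-treated Rv1-Luc in FBS and SNX631-treated Rv1-WT in CSS. Vehicle-treated dKO-8 lay below vehicle-treated Rv1-WT in CSS. The order for single genes on plain totals was not tested.

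**Figure D1:**
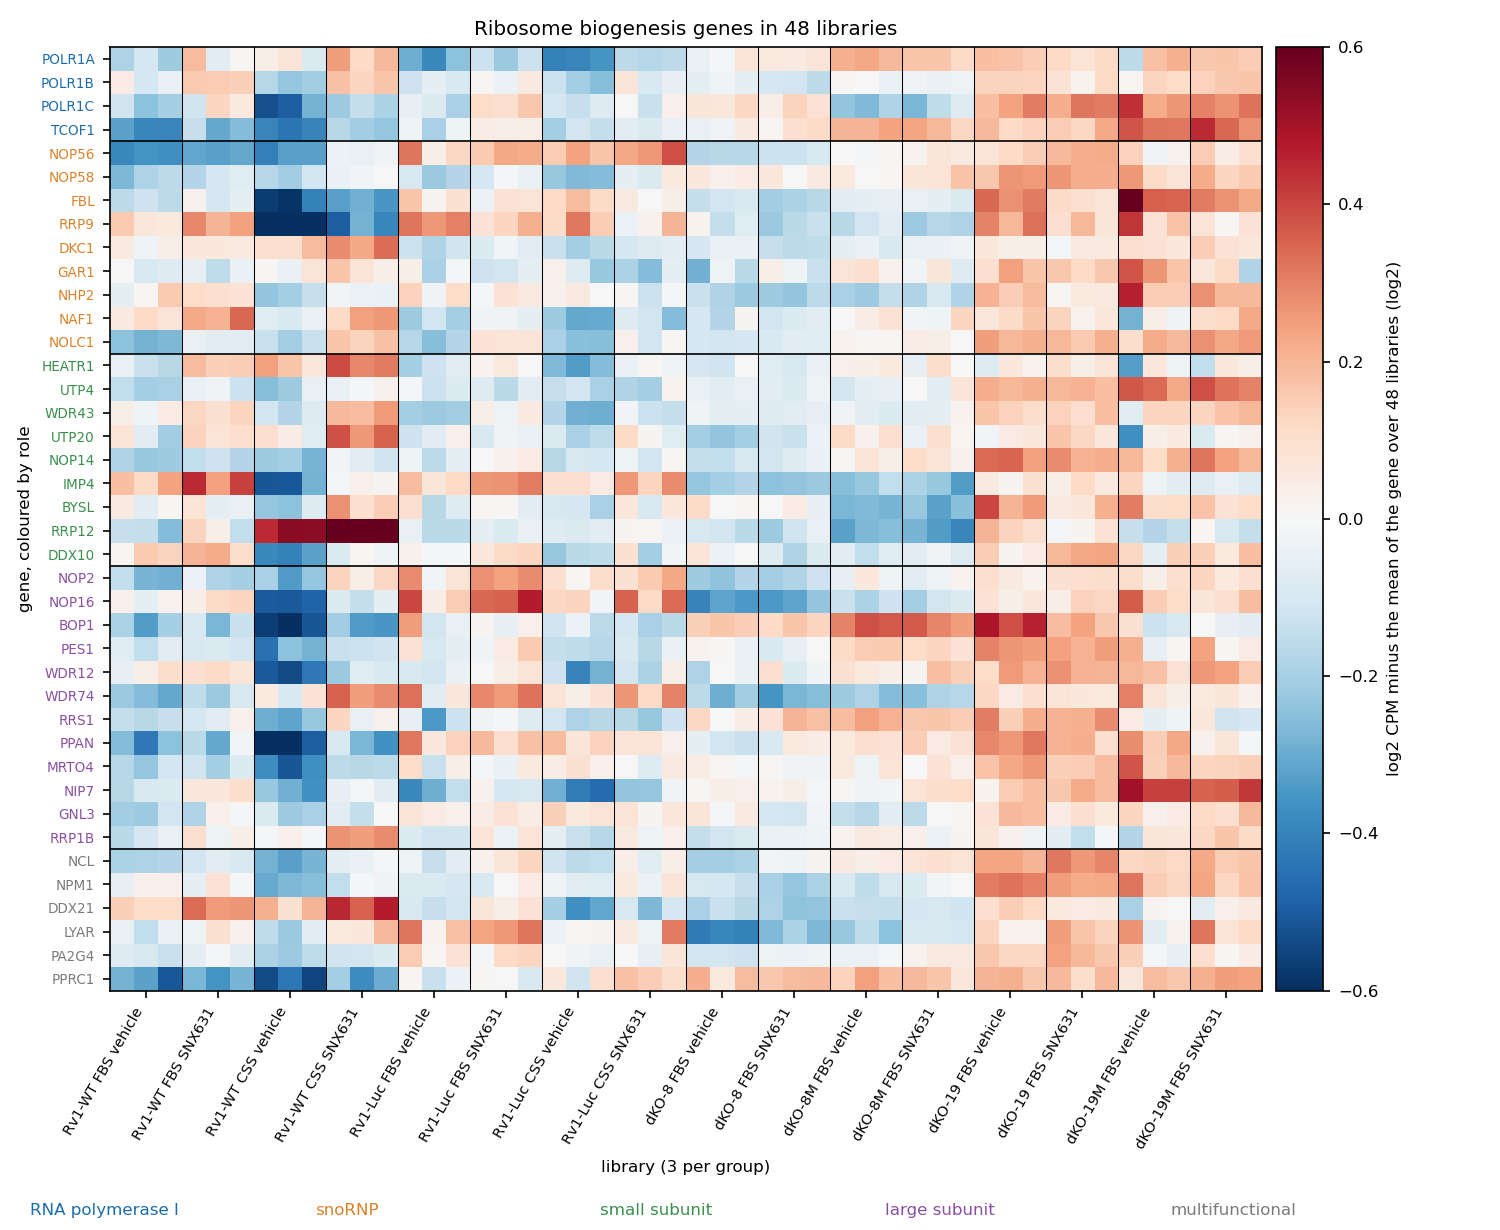
Heat map of the 40 genes (rows, ordered by role) in the 48 libraries (columns, ordered by group). Colour gives log2 CPM minus the gene's mean over all libraries, with the scale ending at 0.6 in each direction. On this TMM-scaled CPM, vehicle-treated Rv1-WT in CSS holds the lowest group mean of 20 genes and the dKO-19 and dKO-19M columns hold the highest of 23. RRP12 has its highest group mean in SNX631-treated Rv1-WT in CSS.

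SNX631 in parental cells in FBS raised a minority of the genes, by small amounts. With an adjusted p (false discovery rate, FDR) under 0.01 from edgeR's quasi-likelihood test as the limit, 7 of the 40 genes rose and none fell, against 4.81% higher and 3.97% lower of all genes tested. Among the 7868 tested genes that average at least 25 CPM, as all 40 do, 6.57% were higher and 7.05% lower. The median log2 change of the 40 genes was 0.10, and 37 of them were above 0, where 50.7% of all genes tested were.

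The 7 genes were the RNA polymerase I subunits POLR1A and POLR1B, NOLC1, the small subunit factors HEATR1 and RRP12, the large subunit factor NIP7 and the helicase DDX21. NOLC1 was at 412, 401 and 405 CPM under vehicle and at 474, 467 and 465 CPM under SNX631, a log2 change of 0.21 ± 0.034 (SE; edgeR FDR 6e-06). HEATR1, a large scaffold protein of the small subunit processome, was at 112, 105 and 102 CPM and then at 131, 127 and 127 CPM, a log2 change of 0.27 ± 0.059 (edgeR FDR 0.000485). Both genes were higher in all 3 treated libraries than in any vehicle library.

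POLR1B, which with POLR1A forms the active centre of RNA polymerase I, was at 69.4, 62.3 and 64.9 CPM under vehicle and at 74.9, 74.4 and 74.0 CPM under SNX631. POLR1A, the largest subunit, was at 103, 108 and 100.4 CPM and then at 133, 111 and 117 CPM (log2 change 0.22 ± 0.057, edgeR FDR 0.00475). In both genes the groups did not overlap, but SNX631 replicate 1 carried much of the POLR1A difference, and without that library its FDR was 0.133. It was 0.0249 without vehicle replicate 1 and 0.0377 without vehicle replicate 3. The count of 7 became 3 without vehicle replicate 1 or 2, 2 without vehicle replicate 3 and 4 without SNX631 replicate 1.

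In CSS the same inhibitor raised most of the pathway in parental cells. Of the 40 genes, 33 rose and none fell, against 9.79% higher and 7.81% lower of all genes tested (15.1% and 12.8% of genes at 25 CPM or more). All 40 fitted log2 changes were above 0, with a median of 0.26, where 49.7% of all genes tested were above 0. No change reached a fold of 1.5, the size limit used in the study. By role, 3 of 4 RNA polymerase I genes, 7 of 9 small nucleolar particle genes, 7 of 9 small subunit factors, 11 of 12 large subunit factors and 5 of 6 genes with several roles passed. The summed level of the 40 genes went from 5738 ± 98.1 CPM under vehicle to 6754 ± 77.3 CPM under SNX631 (SD, n = 3 each), whereas in FBS it went from 6094 ± 25.9 to 6515 ± 30.9 CPM.

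IMP4, a component of the small subunit processome, had the largest change: it was at 35.4, 35.5 and 41.5 CPM under vehicle and at 50.3, 51.6 and 51.0 CPM under SNX631 (log2 change 0.44 ± 0.057, edgeR FDR 1.05e-08). NOP16, a nucleolar factor of the large subunit, was at 36.2, 36.1 and 36.7 CPM and then at 48.4, 46.4 and 49.3 CPM (log2 change 0.40 ± 0.068, edgeR FDR 4.21e-06). RRP9, the U3 small nucleolar particle protein, was at 18.6, 17.7 and 20.8 CPM and then at 23.2, 26.9 and 24.996 CPM (log2 change 0.39 ± 0.078, edgeR FDR 7.09e-05). For all 3 genes every treated library was above every vehicle library.

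More abundant members moved in the same direction. NCL was at 891, 866 and 895 CPM under vehicle and at 1041, 1053 and 1078 CPM under SNX631 (log2 change 0.26, edgeR FDR 4.77e-09). NOP56, a core protein of box C/D particles, was at 166, 176 and 176 CPM and then at 215, 213 and 217 CPM (log2 change 0.32, edgeR FDR 6.21e-08). POLR1B was at 59.6, 57.1 and 58.0 CPM and then at 75.8, 73.3 and 75.3 CPM (log2 change 0.36, edgeR FDR 2.69e-09).

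Smaller differences also passed the test. PES1, which works with BOP1 and WDR12 in a complex that processes the large subunit precursor, was at 80.4, 92.5 and 90.1 CPM under vehicle and at 99.9, 100.1 and 100.9 CPM under SNX631 (log2 change 0.19, edgeR FDR 0.00479). DKC1, the pseudouridine synthase of H/ACA particles, was at 169.8, 169 and 180.3 CPM and then at 193, 186 and 199.8 CPM (log2 change 0.15, edgeR FDR 0.000414). The treated libraries were above the vehicle libraries in both.

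The 7 genes that did not pass were HEATR1 (log2 change 0.17, edgeR FDR 0.0195), POLR1A (0.18, FDR 0.0114), NHP2 (0.16, FDR 0.0169), UTP4 (0.16, FDR 0.0143), GNL3 (0.09, FDR 0.147), PA2G4 (0.08, FDR 0.113) and GAR1 (0.08, FDR 0.461). HEATR1 already stood at 136, 129 and 121 CPM under vehicle in CSS, above its vehicle level in FBS, and reached 151, 140.3 and 143 CPM under SNX631.

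**Figure D2:**
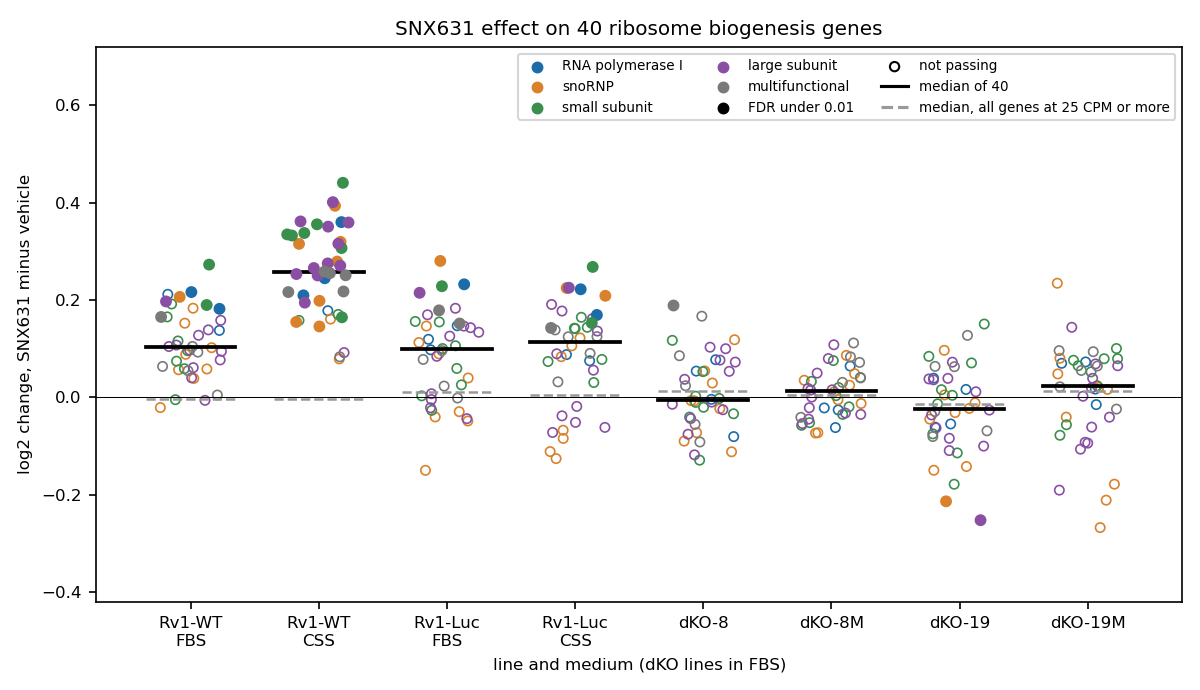
Log2 changes under SNX631 for the 40 genes (1 point each) in the 8 pairs of groups that differ only in the inhibitor, with the median as a line and genes that pass the FDR limit filled. In Rv1-WT in CSS all points lie above 0 and the median is 0.26; in the 4 double-knockout lines the medians lie between -0.02 and 0.02.

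Whether the response in parental cells depended on serum was tested as an interaction (the SNX631 effect in CSS minus that in FBS). Only NOP56 passed, with a difference of log2 changes of 0.26 ± 0.064 (edgeR FDR 0.00885), against 1.05% higher and 0.335% lower of all genes tested. The difference was above 0 for 37 of the 40 genes (50.9% of all genes tested) with a median of 0.15, and 19 had an unadjusted p under 0.05. WDR43 was next at 0.24 (edgeR FDR 0.0155). The NOP56 call was not stable: it was lost under 13 of 18 alternatives, among them each of the 12 that leave out 1 of the libraries of the comparison, with FDRs up to 0.0509 without vehicle replicate 1 in CSS. So of the 33 genes that rose in CSS, all but this one lacked a passing test of a different response in the 2 sera.

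SNX631 in Rv1-Luc raised 6 genes in FBS, against 7.15% higher and 6.08% lower of all genes tested (10.9% and 9.20% of those at 25 CPM or more). None fell, the median log2 change was 0.10 and 31 were above 0 (50.6% of all genes tested). The share of 6 of 40 is not far above the 10.9%, and 3 genes passed with only the samples of the comparison. NOLC1 had the largest change, from 433, 409 and 432 CPM to 518, 515 and 515 CPM (log2 change 0.28 ± 0.034, edgeR FDR 1.38e-09). WDR43, one of the small subunit factors tied to transcription of the precursor RNA, went from 100.1, 99.3 and 99.8 CPM to 118, 113 and 119.6 CPM (log2 change 0.23 ± 0.042, edgeR FDR 2.47e-05). POLR1C, a subunit shared by RNA polymerases I and III, went from 34.7, 33.8 and 31.4 CPM to 38.8, 38.4 and 40.2 CPM (log2 change 0.23 ± 0.059, edgeR FDR 0.00247). The groups did not overlap for any of the 3, though the FDR of POLR1C was 0.0326 without vehicle replicate 3 and 0.0187 without SNX631 replicate 3. NIP7, DDX21 and NCL also rose, by log2 changes of 0.21, 0.18 and 0.15.

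In CSS, 8 genes rose in Rv1-Luc and none fell, against 7.95% higher and 7.88% lower of all genes tested (11.9% and 12.8% of those at 25 CPM or more). The median log2 change was 0.11 and 31 genes were above 0 (51.5% of all genes tested). HEATR1 was at 95.6, 91.1 and 96.0 CPM under vehicle and at 112, 115 and 113 CPM under SNX631 (log2 change 0.27 ± 0.057, edgeR FDR 0.000235). NOP58, the partner of NOP56 in box C/D particles, was at 133.8, 131 and 131 CPM and then at 151, 148 and 164 CPM (log2 change 0.22 ± 0.043, edgeR FDR 4.34e-05). NIP7 was at 45.3, 41.5 and 40.2 CPM and then at 46.99, 47.2 and 54.5 CPM (log2 change 0.23 ± 0.054, edgeR FDR 0.000973), and its call was lost without vehicle replicate 3 (FDR 0.0161) or SNX631 replicate 3 (FDR 0.0534). The other 5 genes were POLR1A (0.22), NOLC1 (0.21), POLR1B (0.17), WDR43 (0.15) and NCL (0.14), and the count was 5 without vehicle replicate 3.

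No gene passed for a difference of the SNX631 effect between CSS and FBS in Rv1-Luc (0 of 40 by edgeR; 0 with an unadjusted p under 0.05; median -0.01), against 0.075% higher and 0.095% lower of all genes tested. Nor did any pass for a difference in FBS between the Rv1-Luc and parental responses, where 4 of 40 had an unadjusted p under 0.05 against 0.440% higher and 0.210% lower of all genes tested. RRP9 had the lowest p there, at a difference of -0.30 (edgeR FDR 0.0962): under SNX631 it was at 34.8, 35.8 and 38.0 CPM in Rv1-Luc against 40.9, 39.3 and 40.4 CPM under vehicle, and at 39.999, 37.8 and 38.8 CPM in Rv1-WT against 36.5, 34.3 and 34.1 CPM.

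These 4 tests of SNX631 in Rv1-WT and Rv1-Luc share no libraries. NOLC1 and NIP7 rose in all 4, POLR1B, WDR43, NCL and DDX21 in 3, 5 genes in 2 and 24 in 1, while GAR1, NHP2, UTP4, GNL3 and PA2G4 passed in none. Of the 7 genes that rose in Rv1-WT in FBS, 5 (71.4%) also rose in Rv1-WT in CSS, where they were 15.2% of the 33. All 6 that rose in Rv1-Luc in FBS were among those 33 (18.2%), as were 6 of the 8 that rose in Rv1-Luc in CSS. Such overlaps were not counted over all genes tested, so whether they exceed those of other genes is not known. NIP7, a large subunit factor, went from 49.3, 51.9 and 52.1 CPM to 58.0, 58.1 and 59.5 CPM in Rv1-WT in FBS and from 47.2, 45.3 and 43.1 CPM to 53.5, 55.0 and 52.8 CPM in CSS.

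**Figure D3:**
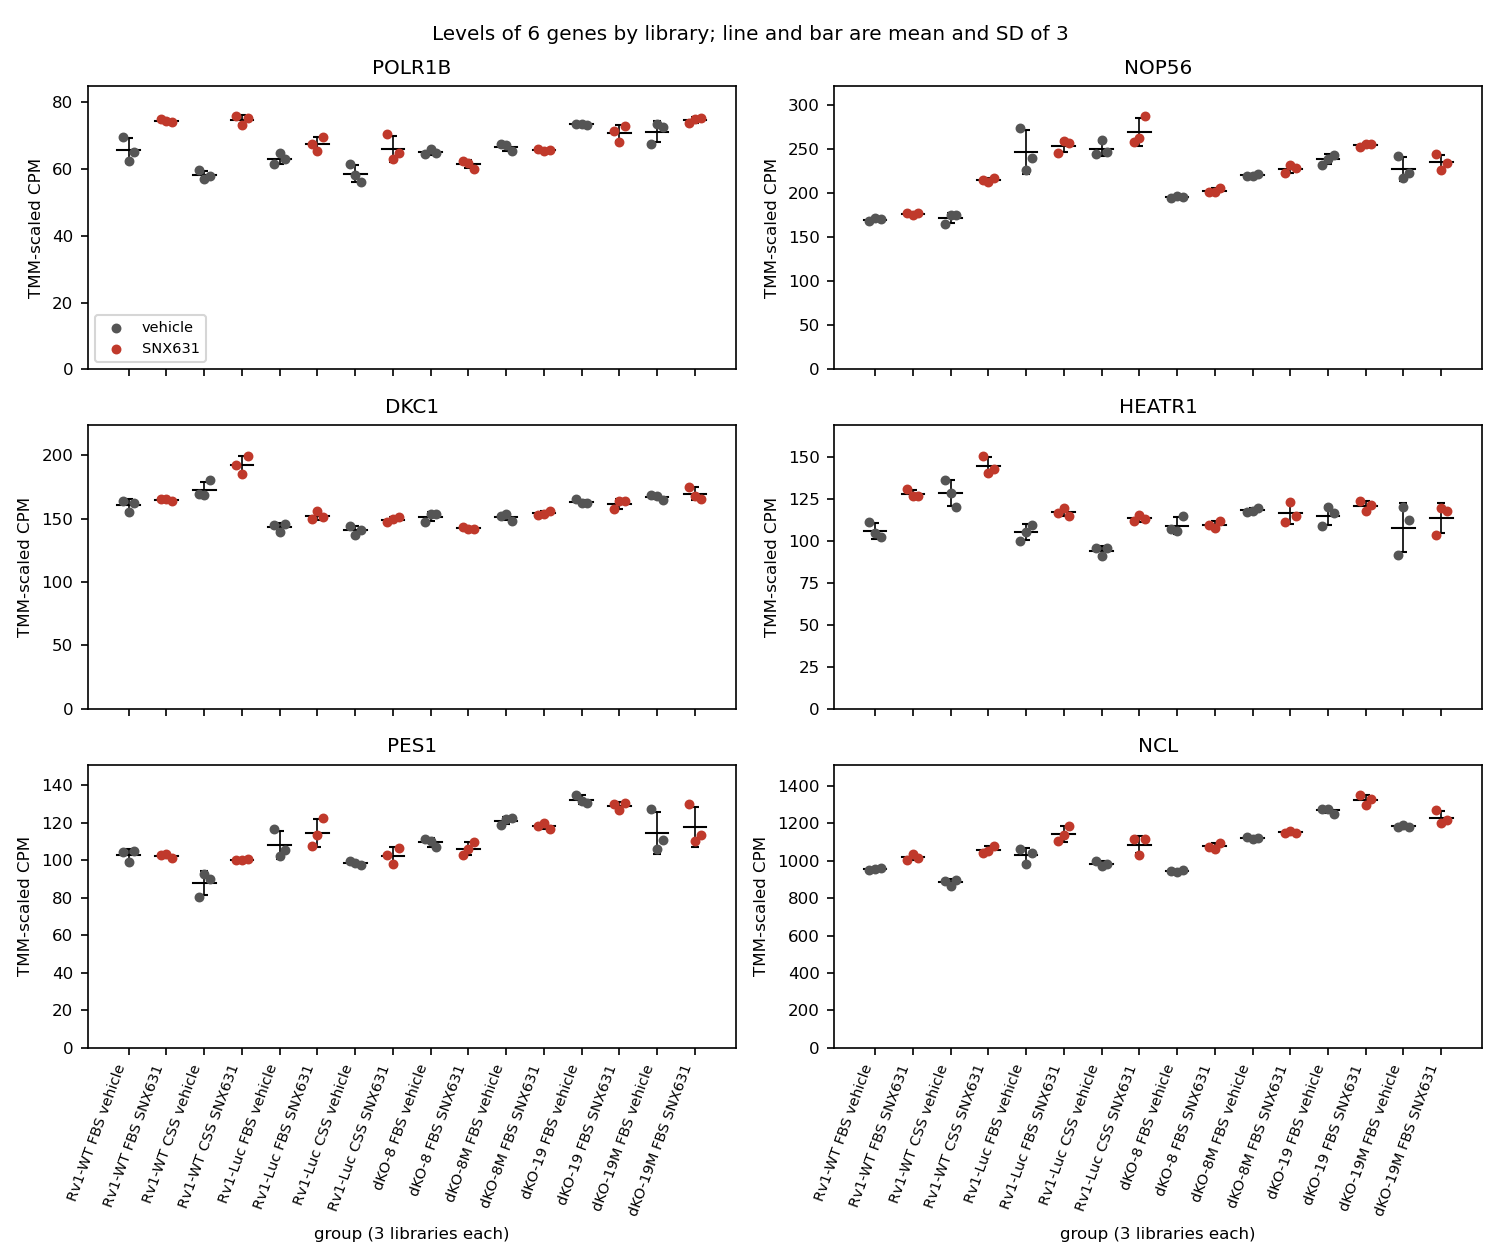
Levels in CPM of POLR1B, NOP56, DKC1, HEATR1, PES1 and NCL in each of the 48 libraries (points) with group means (lines), by line, serum and treatment. For POLR1B and NCL the SNX631 libraries of Rv1-WT lie above the vehicle libraries in both sera, and NOP56 is higher in every Rv1-Luc library than in any vehicle-treated Rv1-WT library.

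In the double-knockout lines the pathway hardly moved with SNX631. In dKO-8, with active CDK8, 1 of 40 genes rose, against 3.17% higher and 4.58% lower of all genes tested, and the median log2 change was -0.01. That gene was NCL, at 943, 940.5 and 949 CPM under vehicle and at 1071, 1062 and 1096 CPM under SNX631 (log2 change 0.19 ± 0.032, edgeR FDR 1.37e-05). It stayed significant without each of the 6 libraries in turn. DKC1 was at 148, 154 and 154 CPM and then at 144, 142 and 142 CPM, a log2 change of -0.09 ± 0.035 that did not pass (edgeR FDR 0.0749).

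In dKO-8M, with kinase-dead CDK8, no gene passed (0 of 40 by edgeR and 0 by DESeq2; 3 with an unadjusted p under 0.05), against 0.065% higher and 0.085% lower of all genes tested. NCL was at 1125, 1114 and 1121 CPM under vehicle and at 1149, 1158 and 1147 CPM under SNX631. The lowest p values belonged to NIP7 (log2 change 0.11, edgeR FDR 0.491) and NOP58 (0.09, FDR 0.517). The difference of the SNX631 effect between dKO-8 and dKO-8M did not pass for any gene (0 of 40 by edgeR; 5 with an unadjusted p under 0.05), against 1.24% higher and 2.06% lower of all genes tested; it was 0.15 for NCL (edgeR FDR 0.0352) and -0.20 for GNL3, nucleostemin (FDR 0.0521).

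In dKO-19, with active CDK19, 2 genes fell and none rose, against 5.53% higher and 7.67% lower of all genes tested. BOP1 was at 142, 132 and 139.6 CPM under vehicle and at 115, 119 and 113 CPM under SNX631 (log2 change -0.25 ± 0.056, edgeR FDR 0.00045). FBL, fibrillarin, was at 295, 281 and 289 CPM and then at 252, 248 and 246 CPM (log2 change -0.21 ± 0.051, edgeR FDR 0.0011). The groups did not overlap in either gene, and the FDR of FBL was 0.0109 without vehicle replicate 1. The median log2 change of the 40 genes was -0.02 and turned to 0.03 when libraries were scaled by their totals alone, a setting in which 3 genes rose and 2 fell, so the list as a whole had no direction in these cells.

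In dKO-19M, with kinase-dead CDK19, no gene passed (0 of 40 by edgeR and 1 by DESeq2; 9 with an unadjusted p under 0.05), against 0.265% higher and 0.690% lower of all genes tested. FBL was at 379.6, 298 and 296 CPM under vehicle and at 289, 281 and 272 CPM under SNX631, so that its log2 change of -0.21 ± 0.050 (edgeR FDR 0.0102) rested largely on vehicle replicate 1, the library that stood apart; without it the change was -0.08 (FDR 0.397). GAR1 was at 48.3, 44.6 and 41.7 CPM and then at 38.97, 40.2 and 32.8 CPM (log2 change -0.27, edgeR FDR 0.0141; -0.21 and FDR 0.143 without that library).

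The SNX631 effects in dKO-19 and dKO-19M differed for 1 gene, RRP1B, a nucleolar factor of the large subunit, by -0.24 ± 0.065 (edgeR FDR 0.00746), against 2.16% higher and 3.50% lower of all genes tested. RRP1B was at 96.6, 93.6 and 90.5 CPM under vehicle and at 87.7, 83.0 and 91.2 CPM under SNX631 in dKO-19, and at 81.2, 96.5 and 96.3 CPM and then at 100.3, 103 and 99.5 CPM in dKO-19M. The call was lost under 11 of 18 alternatives. Without replicate 1 of vehicle-treated dKO-19M the difference was -0.17 (FDR 0.0548), and BOP1 then passed at -0.33 (FDR 0.00236) where it had -0.25 (FDR 0.0292) with all libraries. Between dKO-19 and dKO-8 no gene passed for a difference of the effect (0 of 40 by edgeR; 6 with an unadjusted p under 0.05), against 1.04% higher and 1.39% lower of all genes tested; the lowest p values were those of DDX10, at 0.28 (edgeR FDR 0.023), and BOP1, at -0.24 (FDR 0.0691).

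Growth in CSS changed single genes of the pathway in opposite directions in parental cells under vehicle. Of the 40 genes, 6 were higher and 17 lower in CSS than in FBS, against 17.1% higher and 19.1% lower of all genes tested. Among genes at 25 CPM or more, 22.9% were higher and 35.5% lower, so the share of 17 of 40 stands close to that background. The median log2 change was -0.12. With libraries scaled by their totals alone the split was 7 higher and 12 lower, with a median of -0.06. Of the 12 large subunit factors 7 fell and 1 rose, while the small nucleolar particle genes were split into 2 higher and 3 lower.

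RRP9 fell most: it was at 36.5, 34.3 and 34.1 CPM in FBS and at 18.6, 17.7 and 20.8 CPM in CSS, a log2 change of -0.88 ± 0.076 (edgeR FDR 7.47e-15). IMP4, like RRP9 bound to the U3 particle, was at 57.1, 54.9 and 59.6 CPM and then at 35.4, 35.5 and 41.5 CPM (log2 change -0.61 ± 0.057, edgeR FDR 1.41e-13). WDR12 of the PES1 complex was at 70.8, 75.3 and 78.7 CPM and then at 51.6, 50.4 and 54.4 CPM (log2 change -0.52 ± 0.061, edgeR FDR 1.59e-10). The 2 media did not overlap in any of these genes. The CSS libraries here are also the vehicle libraries of the SNX631 comparison in CSS, in which RRP9 and IMP4 rose. The falls in CSS and the rises under SNX631 in CSS are therefore not independent, for these genes or for the list.

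RRP12, a HEAT-repeat protein needed for export and maturation of the small subunit, moved the other way. It was at 75.6, 75.4 and 69.4 CPM in FBS and at 114, 121 and 121 CPM in CSS, a log2 change of 0.69 ± 0.051 (edgeR FDR 2.2e-17). RRP12, RRP9 and IMP4 were the only members to pass both the FDR limit and the fold limit of 1.5, which 6.09% of all genes passed upward and 4.78% downward. WDR74 rose by 0.28 (edgeR FDR 0.000185) and HEATR1 by 0.27 (edgeR FDR 8.25e-05), and for both every CSS library was above every FBS library.

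Under SNX631, the same comparison of media in Rv1-WT gave 9 genes higher and 6 lower in CSS, against 14.7% higher and 16.6% lower of all genes tested, with a median log2 change of 0.04. RRP12 was at 91.4, 85.3 and 75.2 CPM in FBS and at 158, 144 and 147 CPM in CSS (log2 change 0.84 ± 0.050, edgeR FDR 4.46e-21), and WDR74 and NOP56 rose by 0.45 (FDR 1.86e-08) and 0.28 (FDR 4.82e-07). RRP9 was at 39.999, 37.8 and 38.8 CPM and then at 23.2, 26.9 and 24.996 CPM (log2 change -0.63 ± 0.072, edgeR FDR 7.81e-11), and IMP4 and FBL fell by 0.36 (FDR 1.84e-07) and 0.28 (FDR 1.54e-05). RRP12 and RRP9 also passed the fold limit of 1.5 under SNX631, as 4.86% of all genes did upward and 2.97% downward, and IMP4 did not.

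In Rv1-Luc the change of serum gave few calls. Under vehicle 1 of 40 genes passed, against 4.21% higher and 3.73% lower of all genes tested: DDX21, a helicase that couples RNA polymerase I and RNA processing, was at 371, 358 and 365 CPM in FBS and at 344, 306 and 318 CPM in CSS (log2 change -0.18 ± 0.044, edgeR FDR 0.00293). That call was lost without replicate 1 (FDR 0.0174) or 3 (0.0118) of the FBS group or without replicate 2 (0.0493) or 3 (0.0213) of the CSS group. DDX10 was at -0.19 (FDR 0.0169). Under SNX631 DDX21 again was the 1 gene to pass (log2 change -0.22 ± 0.043, edgeR FDR 0.000246; 0.019 without CSS replicate 2), against 3.25% higher and 3.81% lower of all genes tested, and PPRC1 was at 0.17 (FDR 0.0188). RRP12, at 80.6, 74.4 and 74.3 CPM in FBS and 78.7, 78.2 and 79.5 CPM in CSS under vehicle, overlapped between the sera in Rv1-Luc.

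For 13 of the 40 genes the effect of CSS under vehicle was not the same in Rv1-Luc as in Rv1-WT. In 8 genes the effect was higher in Rv1-Luc and in 5 it was lower, against 14.2% higher and 10.8% lower of all genes tested and 26.7% and 17.3% of those at 25 CPM or more, so the share is near the background. With libraries scaled by their totals alone the split was 7 higher and 8 lower. RRP9 differed by 0.77 ± 0.099 (edgeR FDR 4.98e-09): it was at 40.9, 39.3 and 40.4 CPM in FBS and at 35.5, 40.8 and 36.3 CPM in CSS in Rv1-Luc, without the fall seen in Rv1-WT. IMP4 differed by 0.56 ± 0.078 (edgeR FDR 3.17e-08), at 57.3, 53.1 and 54.9 CPM in FBS and 53.9, 53.9 and 52.3 CPM in CSS in Rv1-Luc. RRP12 differed by -0.65 ± 0.072 (edgeR FDR 8.68e-11) and HEATR1 by -0.43 ± 0.081 (edgeR FDR 2.23e-05). HEATR1 was at 112, 105 and 102 CPM in FBS and at 136, 129 and 121 CPM in CSS in Rv1-WT, but at 100.2, 106 and 109.8 CPM and then at 95.6, 91.1 and 96.0 CPM in Rv1-Luc.

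**Figure D4:**
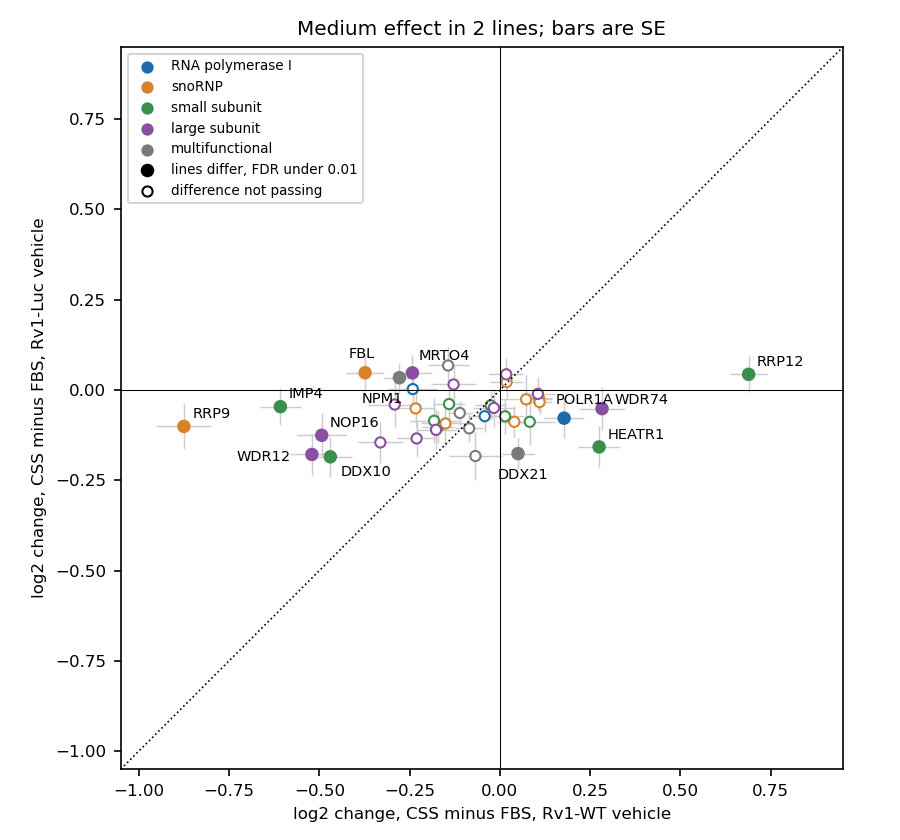
Log2 change from FBS to CSS under vehicle for the 40 genes, in Rv1-WT (x axis) and Rv1-Luc (y axis), with SE bars; filled and labelled points are the 13 genes whose effects differ at an FDR under 0.01, and the dotted line marks equal effects. Along the x axis the genes spread from -0.88 (RRP9) to 0.69 (RRP12), and along the y axis they stay close to 0.

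Already in FBS under vehicle, Rv1-Luc and Rv1-WT differed in 19 of the 40 genes, 15 higher and 4 lower in Rv1-Luc, against 18.6% higher and 23.2% lower of all genes tested (22.0% and 31.1% of those at 25 CPM or more). The median log2 change was 0.06, and 0.03 without replicate 1 of Rv1-Luc, when 13 genes passed (9 higher and 4 lower). NOP56 was at 168, 172 and 170.3 CPM in Rv1-WT and at 275, 226 and 239.8 CPM in Rv1-Luc (log2 change 0.54 ± 0.044, edgeR FDR 9.03e-16). PPAN, a large subunit factor, was at 25.7, 23.0 and 26.1 CPM and then at 38.4, 32.3 and 34.0 CPM (log2 change 0.48 ± 0.067, edgeR FDR 1.41e-08), and WDR74 rose by 0.38 (edgeR FDR 6.3e-07). In all 3 genes the lines did not overlap, and replicate 1 of Rv1-Luc was the highest for each. Without it the log2 changes were 0.45 for NOP56, 0.41 for PPAN and 0.26 for WDR74, and all 3 passed (FDR up to 0.000239). DDX21 fell by 0.24 (edgeR FDR 7.11e-06), WDR43 by 0.23 (FDR 8.11e-06) and NAF1 by 0.26 (FDR 0.000766). Of the 12 large subunit factors 7 were higher and none lower in Rv1-Luc.

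The kinase-dead lines were compared with their active counterparts. Each is a single line, and transcript levels of the re-expressed kinase differ too (under vehicle CDK8 was at 123 CPM in dKO-8M and 68.7 CPM in dKO-8, and CDK19 at 332 CPM in dKO-19M and 510.4 CPM in dKO-19), so kinase activity, kinase level and line cannot be told apart. Under vehicle, dKO-8M exceeded dKO-8 in 11 genes and was below it in 3, against 9.87% higher and 11.9% lower of all genes tested, with a median log2 change of 0.07. Shares among genes at 25 CPM or more are not given for the double-knockout lines. Where given above, they were larger than the shares of all genes tested. NCL was at 1125, 1114 and 1121 CPM in dKO-8M and at 943, 940.5 and 949 CPM in dKO-8 (log2 change 0.25 ± 0.032, edgeR FDR 9.11e-09). It was also the gene that SNX631 raised in dKO-8, but that comparison uses the same dKO-8 vehicle libraries, so the calls are not independent. UTP20, a large scaffold protein of early subunit assembly, was at 63.1, 59.2 and 62.5 CPM and at 50.6, 49.5 and 50.6 CPM (log2 change 0.29, edgeR FDR 0.000291). GAR1 was 0.23 higher (FDR 0.00755), a call lost without any of 5 of the 6 libraries, with an FDR of 0.0966 without dKO-8 replicate 1.

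The genes that were lower in dKO-8M under vehicle were POLR1C, BYSL and GNL3. POLR1C was at 30.5, 29.9 and 31.6 CPM in dKO-8M and at 37.8, 37.7 and 39.2 CPM in dKO-8 (log2 change -0.32, edgeR FDR 2.17e-05). BYSL, bystin, a factor of late small subunit maturation, was at 31.5, 31.7 and 31.4 CPM and at 41.2, 38.1 and 38.3 CPM (log2 change -0.31, edgeR FDR 7.23e-05). GNL3 was lower by 0.17 (FDR 0.00279), a call lost without dKO-8 replicate 1 (0.0209) or 3 (0.0135) or dKO-8M replicate 1 (0.0155) or 2 (0.0263). The count of 14 genes was 8 or 9 without any one dKO-8 library and 6 without dKO-8M replicate 2.

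Under SNX631, dKO-8M was above dKO-8 in 4 genes and below it in 3. Of all genes tested, 7.67% were higher and 8.45% lower, so both shares of the list stand near that background. With libraries scaled by their totals alone, 2 genes were higher and 3 lower. POLR1C and BYSL were again lower, by 0.25 (edgeR FDR 0.000896) and 0.27 (FDR 0.000827), as was RRP12, by 0.21 (FDR 0.00108). NOP56 (log2 change 0.17, FDR 0.00266), NPM1 (0.17, FDR 0.000817) and NOP14 (0.15, FDR 0.00421) were among the genes that were higher. The NOP56 call was lost without any one of 4 libraries (dKO-8 replicates 1 and 2, dKO-8M replicates 2 and 3; FDR up to 0.0192), as was the NOP14 call (replicates 1 and 2 of both lines; FDR up to 0.0371), and NPM1 kept its call without each of the 6. POLR1C lost its call without dKO-8 replicate 2 (FDR 0.0104) or dKO-8M replicate 1 (0.0235), RRP12 without dKO-8 replicate 3 (0.0261) or dKO-8M replicate 3 (0.0155), and BYSL without dKO-8M replicate 2 (0.0118). The count of 7 was 3 to 5 without single libraries.

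For CDK19 under vehicle, dKO-19M was above dKO-19 in 3 genes and below it in 7. Of all genes tested, 10.7% were higher and 13.3% lower, so both shares of the list stand near that background. The split was 5 higher and 4 lower with libraries scaled by their totals alone. BOP1 was at 108, 92.5 and 94.6 CPM in dKO-19M and at 142, 132 and 139.6 CPM in dKO-19 (log2 change -0.49 ± 0.056, edgeR FDR 1.83e-10). RRP12 was at 75.6, 73.7 and 75.2 CPM and at 96.0, 91.1 and 89.0 CPM (log2 change -0.30, edgeR FDR 1.9e-06). NIP7 was at 78.5, 73.7 and 73.5 CPM and at 56.3, 61.4 and 62.8 CPM (log2 change 0.32 ± 0.050, edgeR FDR 4.59e-07). None of these 3 pairs of groups overlapped.

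TCOF1, treacle, which brings RNA polymerase I to the ribosomal DNA, was 0.19 higher in dKO-19M (edgeR FDR 0.000301) and RRS1, which brings the 5S particle into the large subunit, was 0.23 lower (FDR 0.000474; 0.012 without dKO-19 replicate 1). FBL was 0.17 higher (FDR 0.00578), but without replicate 1 of dKO-19M the difference was 0.04 (FDR 0.464), and its call was also lost without dKO-19 replicate 2 (FDR 0.035) or 3 (0.0183). Under SNX631 the 2 lines differed in 5 genes higher and 4 lower, against 10.9% higher and 10.9% lower of all genes tested. Both shares of the list are again near the background. BOP1 (log2 change -0.23, edgeR FDR 0.000947), RRS1 (-0.29, FDR 4.01e-05), NIP7 (0.19, FDR 0.00269) and TCOF1 (0.19, FDR 0.00034) kept the direction they had under vehicle. RRP1B was 0.21 higher (FDR 0.000237) and PA2G4 0.15 lower (FDR 0.0017). Single libraries ended the calls of NIP7 (without dKO-19 replicate 1 or 3 or dKO-19M replicate 3, FDR up to 0.0234), PA2G4 (without dKO-19 replicate 1 or dKO-19M replicate 2, up to 0.0209), TCOF1 (without dKO-19M replicate 1, 0.0143) and BOP1 (without dKO-19 replicate 2, 0.0103), and the count of 9 was 4 without dKO-19 replicate 1 and 5 without dKO-19 replicate 3.

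Over the 17 direct comparisons, which share libraries, NCL and DDX21 passed in 8 each, FBL, NOLC1, NIP7 and BOP1 in 7 each, and UTP4, a small subunit processome protein, in none.

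The members' group means tended to go together across the 16 groups. The median Pearson r between pairs of members was 0.416, as a description over groups that share lines and treatments. NCL had the highest mean r with the other members, at 0.551, and its closest partner was NOP14, a small subunit factor, at 0.951. RRP12 had the lowest mean r, at -0.031, followed by HEATR1 at 0.095 and DDX21 at 0.125. Over the same groups, the median r with the members' mean profile was 0.481 for a list of other ribosome biogenesis genes and -0.025 for all other tested genes. An r with a mean profile is not comparable with an r between pairs. For single members, the r with the mean of the other members ran from -0.049 (RRP12) to 0.912 (NCL). The genes outside the 40 whose profile was most like the members' mean were NUP133 (r = 0.915), GNL2 (0.911), UTP14A (0.885), UCK2 (0.879) and SFXN4 (0.872); GNL2 and UTP14A stand in the list of other biogenesis genes.

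The list of 104 further ribosome biogenesis genes was counted in the same way under SNX631, with no test between the lists. In Rv1-WT in CSS, 39 rose (37.5%) and none fell, against 9.79% and 7.81% of all genes tested, and in FBS 7 rose and 1 fell (4.81% and 3.97%). In Rv1-Luc 11 rose and 1 fell in FBS (7.15% and 6.08% of all genes tested), and 25 rose and 1 fell in CSS (7.95% and 7.88%). The counts were 3 higher and 7 lower in dKO-8 (3.17% and 4.58% of all genes tested) and 8 higher and 4 lower in dKO-19 (5.53% and 7.67%). They were 0 in dKO-8M and dKO-19M by edgeR.

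Cytosolic ribosomal protein genes, whose products are parts of the ribosome itself, moved otherwise. Of 76 measured, 12 rose and none fell in Rv1-WT in CSS under SNX631. There 9.79% of all genes tested and 15.1% of those at 25 CPM or more rose, so the share of 12 of 76 stands close to the latter. In turn, 40 fell in dKO-8 (median log2 change -0.19) and 45 fell in dKO-19 (median -0.17), with none higher in either, against 4.58% and 7.67% lower of all genes tested. In those same comparisons 0 and 2 of the 40 nucleolar genes fell. CSS raised 49 ribosomal protein genes in Rv1-Luc under vehicle (median 0.19), against 4.21% higher of all genes tested, and there 1 nucleolar gene passed and was lower.

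Cell division genes were read beside the pathway, since a change in the share of dividing cells and a change of RNA per cell cannot be told apart in bulk RNA. Of 27 such genes, 5 rose and 11 fell under SNX631 in Rv1-WT in CSS, against 9.79% and 7.81% of all genes tested. Under vehicle 7 were higher and 14 lower in CSS than in FBS, against 17.1% and 19.1%. In Rv1-WT in FBS 1 rose and 2 fell under SNX631, against 4.81% and 3.97%. Their part in the changes of the 40 genes was not tested.

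**Figure D5:**
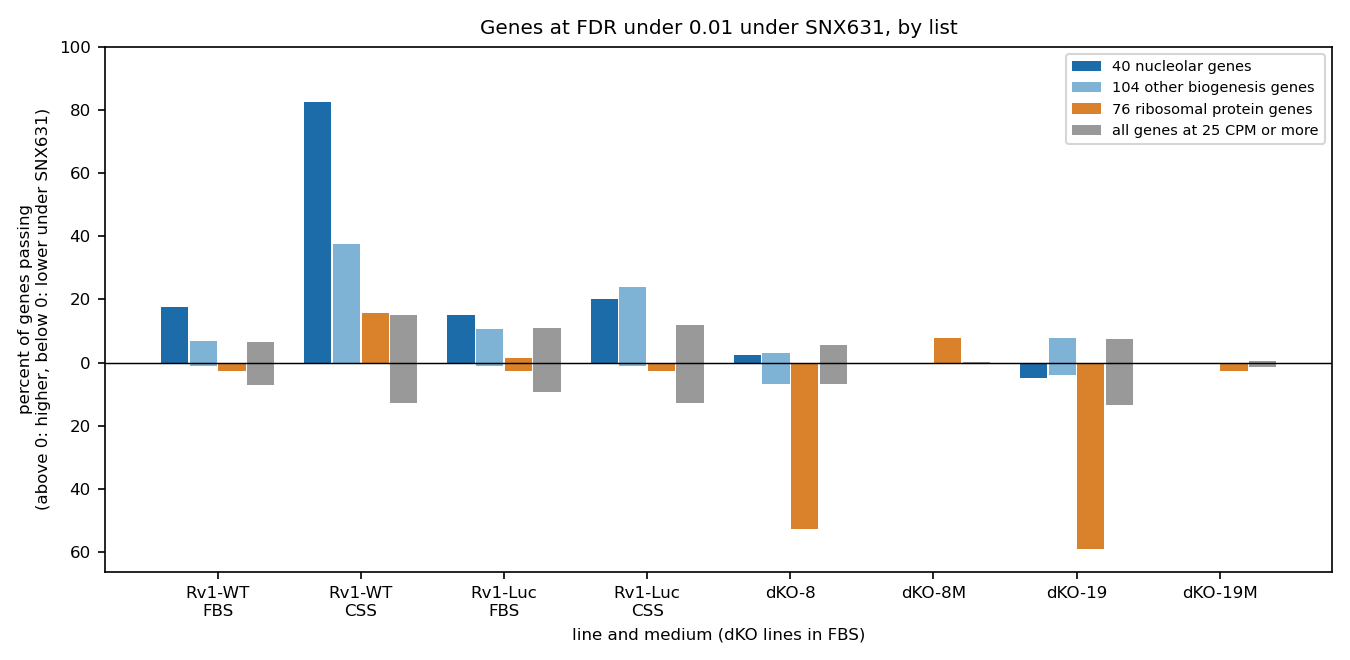
Percentage of genes that rose (above 0) or fell (below 0) at an FDR under 0.01 under SNX631 in each of the 8 pairs of groups, for the 40 nucleolar genes, 104 other biogenesis genes, 76 cytosolic ribosomal protein genes and all tested genes at 25 CPM or more. The bar of the 40 genes reaches 82.5% in Rv1-WT in CSS, and ribosomal protein genes fall in dKO-8 and dKO-19 where the nucleolar genes stay near 0.

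Of 18 regulators (MYC, its partners and antagonists, and RNA polymerase I initiation factors), 5 rose and 3 fell under SNX631 in Rv1-WT in CSS, against 9.79% and 7.81% of all genes tested. MYC was at a log2 change of 0.12 under SNX631 in Rv1-WT in FBS (edgeR FDR 0.107) and rose by 0.78 in CSS (FDR 8.71e-20), and the difference of 0.67 between the sera passed (FDR 6.77e-10). It fell by 0.36 in dKO-8 (FDR 8.84e-08) and by 0.39 in dKO-19 (FDR 3.68e-09), where the 40 genes had medians of -0.01 and -0.02. The changes of MYC under SNX631 in Rv1-Luc are not given here. UBTF, the activator that loads RNA polymerase I onto ribosomal DNA, fell in all 6 comparisons with an active kinase, by 0.17 in dKO-19 to 0.37 in Rv1-WT in CSS. TAF1D, a subunit of the RNA polymerase I selectivity factor, rose by 0.30 in Rv1-WT in CSS (FDR 3.1e-05). The part of these regulators in the changes of the 40 genes was not tested.

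Because MYC binds E-boxes, the letters CACGTG (a palindrome, so the same on both strands) were searched in RefSeq promoters of GRCh38.p14 reaching from 250 bases before to 50 bases after each annotated start. Of the 40 genes, 32 had a promoter in the table (all but BOP1, NAF1, NOLC1, NOP58, RRP12, RRP1B, RRS1 and TCOF1), and 15 of these (46.9%) held the motif. Among genes in the table as a whole 2396 of 27305 (8.77%) held it, among the other biogenesis genes 30 of 88 (34.1%) and among ribosomal protein genes 4 of 61 (6.56%). The windows that follow are those of the 3 members with the largest and smallest changes under SNX631 in Rv1-WT in CSS that hold the motif, together with FBL and PES1; each has the motif in capitals with 12 bases on either side, written along the gene's own strand.
IMP4, chr2:130342682-130342711, plus strand: gcggtcctaagtCACGTGtgacattctgta
IMP4, chr2:130342900-130342929, plus strand: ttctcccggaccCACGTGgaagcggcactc
RRP9, chr3:51941892-51941921, minus strand: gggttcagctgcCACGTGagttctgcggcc
BYSL, chr6:41921515-41921544, plus strand: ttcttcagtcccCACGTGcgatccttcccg
FBL, chr19:39846356-39846385, minus strand: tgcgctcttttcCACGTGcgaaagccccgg
PES1, chr22:30591880-30591909, minus strand: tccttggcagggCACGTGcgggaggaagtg
UTP4, chr16:69132621-69132650, plus strand: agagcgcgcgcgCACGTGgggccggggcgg
GNL3, chr3:52686026-52686055, plus strand: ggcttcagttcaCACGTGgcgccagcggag
GAR1, chr4:109815781-109815810, plus strand: gggccagaggggCACGTGgcgccggtgagt

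IMP4 held the motif both 203 bases before and 16 bases after its start, and in RRP9 it began 5 bases before the start. GAR1, GNL3 and UTP4 held it as well and were among the 7 genes that did not pass in Rv1-WT in CSS. Of the 15 genes with the motif 12 rose in that comparison, with a median log2 change of 0.25, and of the 17 without it 13 rose, with a median of 0.25.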

How the data were processed

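RNA sequencing of 48 libraries of 22Rv1 and its derivatives was analysed from 1 table of expected counts per gene that the authors deposited; 81.6% of its nonzero values were whole, and values were rounded to whole numbers here. Libraries were made with a strand-specific kit. The submitters' processing notes name FastQC, cutadapt 2.8, STAR 2.7.2b, featureCounts and Subread 2.0.3, and the builds GRCh38.p13 and GRCm39. Of 61817 rows, 2 are transgenes.

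Groups were taken from the sample labels. Genes with too few counts were removed (filterByExpr, minimum count 10 and minimum total 15), libraries were scaled with TMM factors (0.911 to 1.07), and all 48 libraries entered 1 fit (edgeR 4.0.16 quasi-likelihood test, robust, 32 residual degrees of freedom; limma 3.58.1, R 4.3.3), with Benjamini-Hochberg adjustment over 20009 genes in each of 17 direct comparisons and 7 differences of effects. The limit was an FDR under 0.01; the study's own limits add a fold over 1.5. Common biological variation was 4.20%. Levels are CPM, on 2 scales. For the member genes and their sums, counts were divided by library totals multiplied by the TMM factors. Member levels compared between lines therefore depend on those factors. For the luminal, fibroblast, immune, endothelial and immunoglobulin marker genes and the summed ribosomal protein transcripts, counts were divided by plain library totals. Fits that leave out 1 library kept the dispersion trend of the full fit. Expression per kilobase used GENCODE exons. The procedure was tested on simulated data. Sequences came from RefSeq (GRCh38.p14).

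Members and gene lists were chosen with earlier results of these data known, and the background of genes at 25 CPM or more was added after the members' levels were seen. Genes named in full are, for each comparison, those past both study limits, the 3 passing genes with the largest change in each direction or, where fewer than 3 passed, the 2 with the lowest p, together with POLR1B, NOP56, DKC1, HEATR1, PES1, NCL, RRP9 and RRP12 by library; genes with fractional counts in over 25% of libraries are named as uncertain. Genes named outside this rule were chosen after their values were seen. Alternatives were library totals without TMM, DESeq2 size factors, no low-count filter, a replicate block, only the samples of the comparison, DESeq2 1.42.0, and leaving out each library. CPM values are relative to all counts in a library, so a change in total RNA per cell cannot be seen.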

Additional observations from a re-analysis of the deposited data

Results flagged for a closer look

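Differences of an effect between 2 cell lines or sera passed the test in 15 cases, which are singled out for that reason alone. For the effect of CSS under vehicle, the effect in Rv1-Luc exceeded that in Rv1-WT, as a difference of log2 changes with edgeR's FDR, for RRP9 (0.77, FDR 4.98e-09), IMP4 (0.56, FDR 3.17e-08), FBL (0.42, FDR 5.04e-06), NOP16 (0.37, FDR 0.000974), WDR12 (0.34, FDR 0.000841), NPM1 (0.31, FDR 1.74e-05), MRTO4 (0.29, FDR 0.0011) and DDX10 (0.28, FDR 0.0048). It was below that in Rv1-WT for RRP12 (-0.65, FDR 8.68e-11), HEATR1 (-0.43, FDR 2.23e-05), WDR74 (-0.33, FDR 0.00163), POLR1A (-0.26, FDR 0.00835) and DDX21 (-0.23, FDR 0.00273). WDR74 lost its call without replicate 1 of vehicle-treated Rv1-Luc in FBS (FDR 0.0285). Along with these, 44 of 76 ribosomal protein genes also had a higher effect in Rv1-Luc, against 14.2% of all genes tested, and MYC differed by 0.44 (FDR 4.48e-07). Their part in the differences was not tested.

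For the effect of SNX631, NOP56 differed by 0.26 between CSS and FBS in Rv1-WT (FDR 0.00885), and RRP1B by -0.24 between dKO-19 and dKO-19M (FDR 0.00746). Each was lost without single libraries. Replicate 1 of vehicle-treated dKO-19M, which stood apart from its group, held RRP1B at 81.2 CPM against 96.5 and 96.3 CPM.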

How the results depend on the processing

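No named gene changed direction under any of the alternatives, but with library totals the balance of higher to lower genes turned for dKO-19M against dKO-19 under vehicle (5 to 4), dKO-8M against dKO-8 under SNX631 (2 to 3), the CSS effect between the lines (7 to 8) and SNX631 in dKO-19 (3 to 2). DESeq2 size factors moved none of the counts by more than 1.5 times and left all 84 named gene results on their side of the limit; library totals kept 77 of 84, no low-count filter 80, the replicate block 80, the samples of the comparison alone 70 and DESeq2 80, and leaving out single libraries kept 541 of 612. The cause of the moves was not tested; fits on 6 libraries have fewer degrees of freedom.

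Counts of passing genes moved by more than 1.5 times as follows. With library totals they were 5 for SNX631 in dKO-19 and 1 in dKO-19M, 2 for CSS in Rv1-Luc under vehicle, and, for differences of the SNX631 effect, 1 for dKO-8 minus dKO-8M, 0 for dKO-19 minus dKO-19M, 1 for dKO-19 minus dKO-8 and 0 for CSS minus FBS in Rv1-WT; medians of the log2 changes became 0.028 for dKO-19 and -0.060 for CSS in Rv1-WT under vehicle. Without a low-count filter they were 4 for SNX631 in Rv1-WT in FBS, 5 in Rv1-Luc in CSS, 2 in dKO-19M, 2 for CSS in Rv1-Luc under SNX631 and 0 for dKO-19 minus dKO-19M. With only the samples of the comparison they were 3 in Rv1-Luc in FBS, 5 in Rv1-Luc in CSS, 5 in dKO-8, 4 in dKO-19, 0 for CSS in Rv1-Luc under vehicle, 23 and 16 for dKO-8M against dKO-8 under vehicle and SNX631, 3 for dKO-19M against dKO-19 under vehicle, 3 for dKO-8 minus dKO-8M, 0 for dKO-19 minus dKO-19M, 2 for dKO-19 minus dKO-8 and 6 for CSS minus FBS in Rv1-WT. DESeq2 gave 1 in dKO-19M, 2 for CSS in Rv1-Luc under SNX631, 1 for dKO-8 minus dKO-8M and 4 for CSS minus FBS in Rv1-WT.

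Samples with the same replicate number did not deviate together (r from -0.09 to 0.157), so the numbers were not taken as pairs. With a replicate block the counts were 2 for SNX631 in dKO-19M, 2 for dKO-19 minus dKO-19M and 3 for CSS minus FBS in Rv1-WT, and the other counts stayed within 1.5 times.

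Leaving out single libraries gave 2 to 6 genes for SNX631 in Rv1-WT in FBS, 28 to 32 in CSS, 4 to 8 in Rv1-Luc in FBS and 5 to 12 in CSS, 1 in dKO-8, 1 to 2 in dKO-19 and 0 to 2 in dKO-19M. For CSS against FBS it gave 17 to 21 (Rv1-WT, vehicle), 10 to 15 (Rv1-WT, SNX631), 0 to 3 (Rv1-Luc, vehicle) and 0 to 2 (Rv1-Luc, SNX631). For dKO-8M against dKO-8 it gave 6 to 10 under vehicle and 3 to 5 under SNX631, for dKO-19M against dKO-19 7 to 10 and 4 to 7, and for Rv1-Luc against Rv1-WT 13 to 19. For differences of effects it gave 0 to 2 for CSS minus FBS in Rv1-WT, 0 to 2 for dKO-19 minus dKO-19M and 10 to 13 for the CSS effect between the lines. The smallest count of a member was 286, and the share of counting error in the replicate spread was not tested.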
